A study of Mus musculus with 4 samples.

Results

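The RNA content of normal newborn mouse epidermis was read from the 2 control libraries of a series of 4. They were chosen by genotype alone, as the libraries labelled Skiv2l ctl, and every gene of their tables was used. The series compared the epidermis of Skiv2l ctl pups with that of Skiv2l fl/fl K14-Cre pups, in which Cre recombinase driven by the keratin 14 promoter deletes Skiv2l, the gene of an RNA helicase, in keratinocytes. All pups were C57BL/6 mice at postnatal day 0 (P0), and total RNA of the epidermis was sequenced. In the study the name Skiv2l ctl covers littermates of the genotypes Skiv2l fl/+ K14-Cre, Skiv2l fl/+ without Cre, or Skiv2l fl/fl without Cre, so that every control carried at least 1 floxed allele, and a control may have carried Cre and lost 1 copy of the gene. Which of these genotypes each control pup had is not given per sample. The libraries are called control 1 and control 2 below. Skiv2l itself (ENSMUSG00000040356.16, chromosome 17, 34839228 to 34850210, GRCm38) had an FPKM of 19.3 in control 1 and 19.1 in control 2.

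Epidermis is a sheet of keratinocytes in layers. Basal cells divide on the basement membrane and make the keratin pair K5 and K14. Spinous cells above them have left the cell cycle and make K1 and K10, granular cells make filaggrin, loricrin and the lipids of the permeability barrier, and dead cornified cells form the surface. Keratin filaments are built from equal numbers of type I and type II chains, whose genes lie in separate clusters, and many genes of cornification lie together in the epidermal differentiation complex. Hair follicles, melanocytes, Langerhans cells, T cells and Merkel cells lie within the sheet.

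Values are FPKM, fragments scaled to the kilobases of the transcript and to the fragments of the library. They are thus scaled for length and library size, can be compared between genes of a library and describe an amount of RNA in the whole tissue, in which fewer cells of a type and less RNA per cell cannot be told apart. The ratio of coverage to FPKM in the files, which under the usual definitions equals the aligned gigabases, was 6.085 in control 1 and 6.274 in control 2, so the depths were close. FPKM was above 0.5, the study's cutoff, for 12981 protein-coding genes in control 1 and 12924 in control 2. The 2 libraries shared 12615 of these genes, 675 passed in 1 library only, and 4271 of the 21921 protein-coding genes were listed at 0 in both. At 0.5 FPKM the coverage was about 3 reads per base (3.0425 in control 1 and 3.137 in control 2), so values near the cutoff rest on shallow coverage. Means are given ± SD over n = 2 pups. With 1 group of 2 libraries no test was run, and differences between the libraries are descriptions of 2 pups.

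The 2 most abundant RNAs of the control epidermis were those of the keratin pair of the spinous layer. Krt1, which encodes the type II keratin K1 (ENSMUSG00000046834.7, chromosome 15, 101845426 to 101850794), had an FPKM of 12721 in control 1 and 13157 in control 2 (12939 ± 308). Its type I partner Krt10 (ENSMUSG00000019761.10, chromosome 11, 99385254 to 99389364) had 9268 and 10220 (9744 ± 673). These genes alone held 6.77% of the summed protein-coding FPKM in control 1 and 7.04% in control 2. The 10 most abundant genes held 12.6% and 12.8%, the top 100 held 29.5% and 30.2%, and the top 1000 held 58.2% and 58.6%. Only 17 protein-coding genes exceeded 1000 FPKM in control 1 and 19 in control 2, while 5817 and 5859 exceeded 10.

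The 30 most abundant protein-coding genes were largely those of a stratified, cornifying epithelium and of protein synthesis. They included 4 keratin genes, 7 ribosomal protein genes, 4 genes on chromosome 3 in the epidermal differentiation complex, 2 elongation factors, 2 actins and 2 desmosome genes. After Krt1 and Krt10 came Eef1a1, the translation elongation factor, with 3765 in control 1 and 4127 in control 2 (3946 ± 256). Flg, the gene of profilaggrin, followed with 4087 and 3658 (3873 ± 303). Calm4, a calmodulin-like protein of differentiating keratinocytes, had 2050 and 2058. The aspartic protease gene Asprv1, which acts on profilaggrin, had 1945 and 1868, and Dmkn, the gene of dermokine, had 1801 and 1906. Rplp0, Actb, Tpt1, Rpsa and Rps2 stood between 967 and 1748 in both libraries, the range that also held the cystatin family members Stfa3 (1446 and 1222) and BC100530 (1283 and 1250), the spinous gene Krtdap (1186 and 1291) and Crct1 of the differentiation complex (1210 and 1138). The last 12 of the 30 were Rplp1, Perp, Eef2, Jup, Hrnr, Rps14, Lor, Rpl13, Ly6d, Actg1, Lgals7 and Rpl13a, with means from 960 down to 773. When the 30 were chosen in each library on its own, 29 genes were shared, and of the top 100, 97 were shared.

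**Figure D1:**
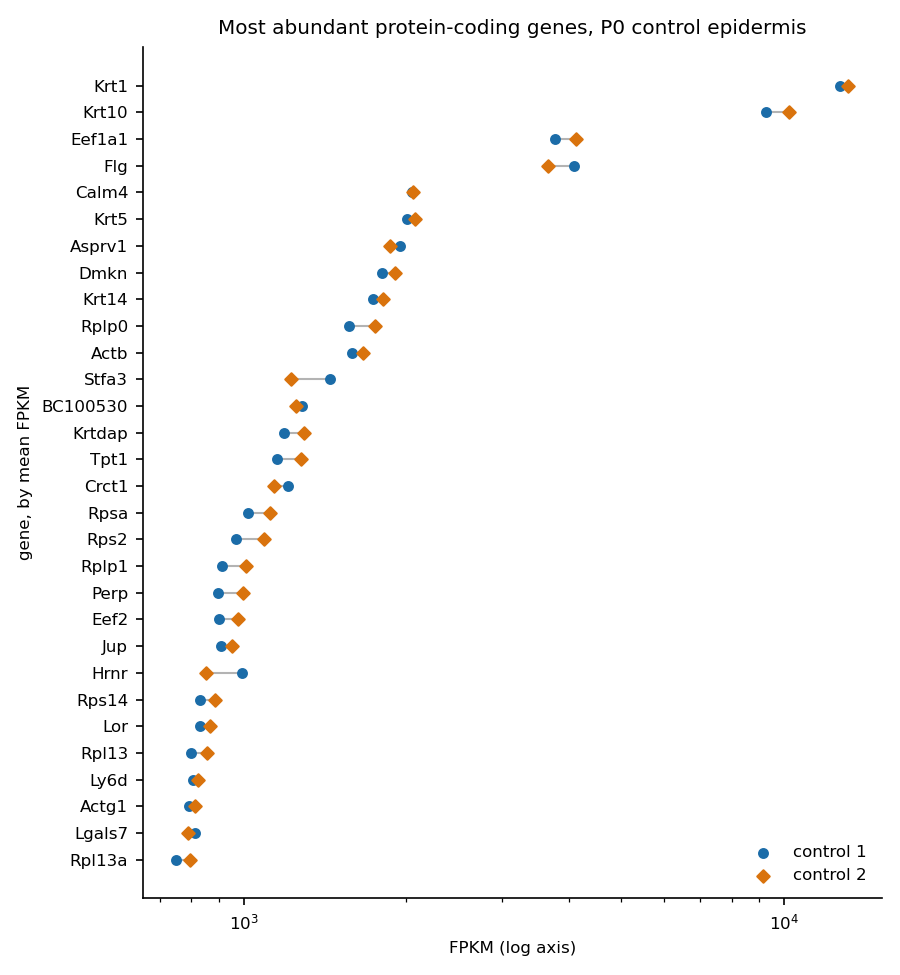
FPKM (log axis) of the 30 protein-coding genes with the highest mean, in control 1 (circles) and control 2 (diamonds), ordered by mean, with a line joining the libraries. Krt1 and Krt10 stand apart at means of 12939 and 9744 FPKM, and the gap between the libraries is small beside the range from 750 to 13157.

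The keratinocyte markers were all abundant, as the tissue label says. Krt5 (ENSMUSG00000061527.7, chromosome 15, 101707070 to 101712898) and Krt14 (ENSMUSG00000045545.8, chromosome 11, 100203162 to 100207548) encode the basal keratins. Krt5 had an FPKM of 2003 in control 1 and 2075 in control 2 (2039 ± 50.6), and Krt14 had 1736 and 1812 (1774 ± 53.7). Krt15, another basal type I keratin, had 462 and 428 and ranked 74 of all protein-coding genes. Krt77, a type II keratin of suprabasal cells, had 70.8 and 71.2 and ranked 655. Krt10 exceeded Krt14 by 5.34-fold in control 1 and 5.64-fold in control 2, and Krt1 exceeded Krt5 by 6.35-fold and 6.34-fold. Both spinous genes thus stood above both basal partners by like factors in the 2 pups. Krt2, a keratin of ear, tail and sole skin in mice, was at 0.226 and 0.135, under the cutoff.

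The 2 keratin types were close to balanced. Summed over the 25 type II genes the FPKM was 15422 in control 1 and 16088 in control 2, and over the 28 type I genes it was 12476 and 13510. Type II exceeded type I by 1.24-fold and 1.19-fold. The same order held within the pairs, by 1.37-fold and 1.29-fold for Krt1 over Krt10 and by 1.15-fold for Krt5 over Krt14 in both libraries. Of the 53 keratin genes, 39 were above 0.5 in both libraries, and together the family held 8.58% and 8.92% of protein-coding FPKM. Below the 4 leading genes stood Krt17 (498 and 519), Krt15, Krt16 (338 and 359) and Krt80 (217 and 219). Krt6b had 116 and 171 and Krt6a 59.1 and 98.7, both higher in control 2. These are keratins of the follicle that wounding induces between follicles, and 30.6% of the 100-base stretches of the transcripts of each occur in another gene, mainly each other, so the split between them is uncertain.

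**Figure D2:**
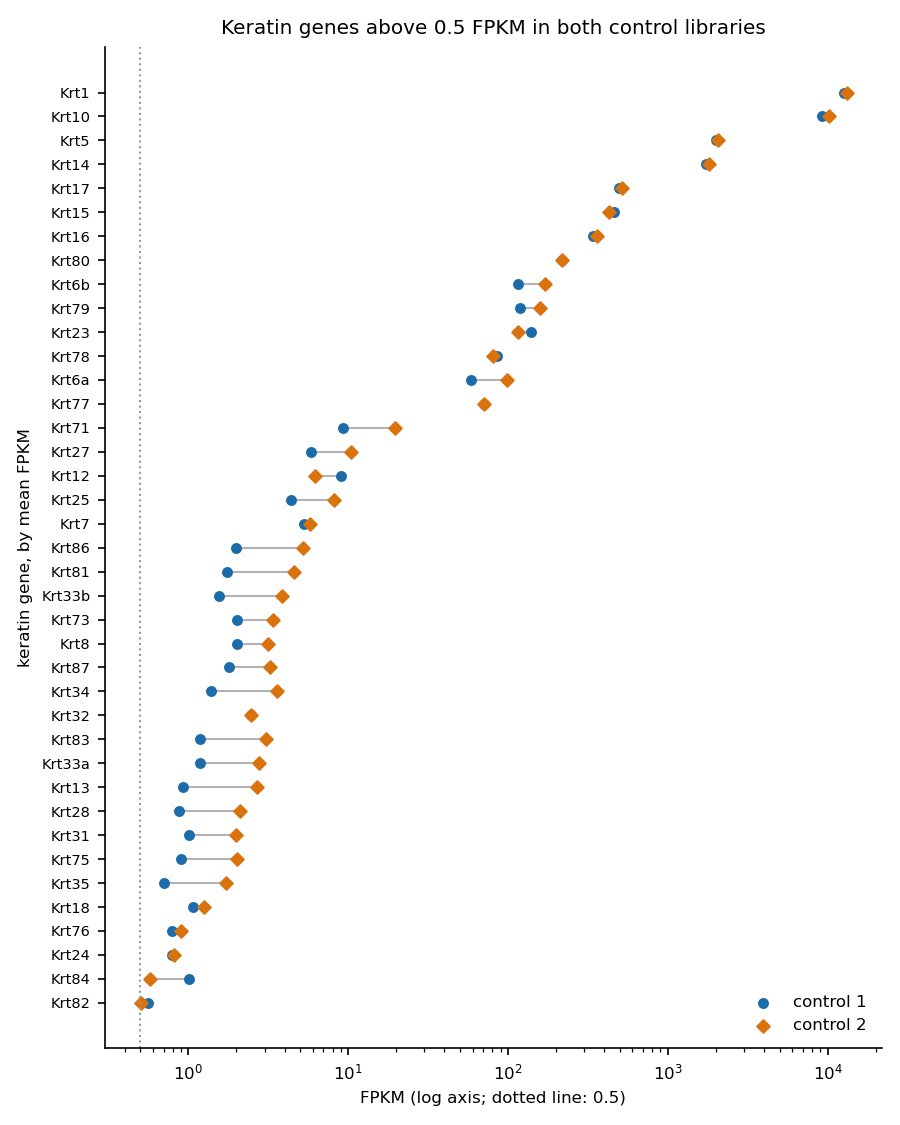
FPKM (log axis) of the 39 keratin genes above 0.5 FPKM (dotted line) in both libraries, ordered by mean, in control 1 (circles) and control 2 (diamonds). From Krt1 to Krt77 the libraries lie close together except at Krt6a, Krt6b and Krt79, and most keratins below Krt77, those of the follicle among them, lie to the right in control 2.

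The genes of each layer were read from lists of known layer genes. The spinous list of 14 genes summed to 25954 FPKM in control 1 and 27445 in control 2, which was 7.99% and 8.27% of the protein-coding sum. The granular list of 24 genes summed to 12986 and 12449 (4% and 3.75%), and the basal list of 16 genes to 5268 and 5447 (1.62% and 1.64%). The order spinous, granular, basal held in both libraries, and the gaps between the lists were far larger than the gaps between the pups. The sums depend on which genes the lists hold, and a few genes carry each of them. All 16 basal genes, 13 of 14 spinous genes and 23 of 24 granular genes were above 0.5 in both libraries.

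Below Krt5, Krt14 and Krt15, the basal list was led by Col17a1, the hemidesmosome collagen, with an FPKM of 244 in control 1 and 269 in control 2. Itga6 and Itgb4, which pair as the hemidesmosome integrin, had 114 and 118, and 81.2 and 88.9. Trp63, the transcription factor p63 of the basal layer, had 88.9 and 99.9. The epidermal laminin chain genes Lamb3 and Lama3 had 69.2 and 72, and 50.4 and 47.9. Among spinous genes, Lgals7 had 814 and 790 and Sbsn 557 and 538. The desmosomal cadherins of upper layers, Dsc1 (365 and 403) and Dsg1a (260 and 290), followed, though 24.6% of the stretches of Dsg1a occur in another gene, mainly Dsg1b.

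Granular genes beyond Flg, Asprv1 and Dmkn included Hrnr, the gene of hornerin, with an FPKM of 993 in control 1 and 853 in control 2. Lor, the gene of loricrin and the main protein of the cornified envelope, had 828 and 867. Flg2 had 706 and 635, and Cdsn, the gene of corneodesmosin, 568 and 599. The crosslinking enzyme Tgm1 had 138 in both libraries, and Ivl, the gene of involucrin, 103 and 98.7. Flg, Flg2 and Hrnr were all higher in control 1 by less than 1.2-fold, while Lor and Cdsn were higher in control 2. Of the 21 late cornified envelope (Lce) genes, 20 were above 0.5 in both libraries, and the family summed to 3074 and 2929. Lce1m led it with 655 and 614. In contrast, the 14 small proline-rich (Sprr) genes summed to 337 and 292, with Sprr2a2 first at 178 and 127. Of the 100-base stretches of Sprr2a2, 92.8% occur in another gene, mainly Sprr2a1, so these members cannot be told apart.

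Cell junctions and the lipid barrier were well represented. Of the 21 desmosome and adherens junction genes, 19 were above 0.5 in both libraries, and the list summed to 5185 in control 1 and 5587 in control 2. Perp, a desmosome membrane protein, had 897 and 995, Jup, the gene of plakoglobin, 907 and 952, Dsp, the gene of desmoplakin, 741 and 800, and Pkp1, the gene of plakophilin 1, 687 and 734. Gja1, the gap junction gene of connexin 43, had 204 and 214, and Cldn1, the tight junction claudin whose loss lets water escape in newborn mice, 80.0 and 91.9. The connexin gene Gjb2 (77.8 and 76.3) was close to it. Every one of the 28 lipid barrier genes was above 0.5 in both libraries, with a sum of 2264 and 2361. Elovl1 and Elovl4, which lengthen the fatty acids of ceramides, had 400 and 425, and 219 and 238. Dgat2, which makes triglyceride, had 242 and 260. The lipoxygenase gene Alox12b had 171 and 175, its partner Aloxe3 99.0 and 94.4, and Abca12, the lipid transporter of lamellar granules, 102 and 99.2. The kallikreins Klk5 (285 and 271) and Klk7 (249 and 250), proteases that shed the surface, stood above Spink5, the gene of a kallikrein inhibitor, at 159 and 180. Ctsd, a lysosomal protease gene, had 300 and 322.

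All 35 transcription factors on the list of epidermal regulators were above 0.5 in both libraries. Klf4, needed for the barrier, was first with 358 in control 1 and 311 in control 2. Cebpb had 195 and 158, and Cebpa 161 and 178. All 25 cell cycle genes were also above 0.5, but lower, with sums of 401 and 395. Pcna had 39.9 and 40.3, Mcm7 26.7 and 32.9, Top2a 29.5 and 29.7, and Mki67 26.9 and 24.4. The regulators of follicle growth, 24 of 26 above 0.5 in both, included the hedgehog receptor gene Ptch1 (83.9 and 89.1), the ligand gene Shh itself at 11.7 and 12.6, and Wnt10b at 38.8 and 40.9.

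Of 17 wound and stress genes, 11 were above 0.5 in both libraries, 5 were below it in both and 2 of these were listed at 0. The stefin genes Stfa3 and Stfa1 (278 in control 1 and 270 in control 2) led the wound list beside Krt17 and Krt16. Of 20 antimicrobial genes, 7 were above 0.5 in both libraries, and the sums were 82.4 and 90.1. Rnase4 had 37.6 and 39.6, Defb1, a beta-defensin, 20.8 and 19.4, and the peptidoglycan recognition genes Pglyrp4 and Pglyrp3 had 11.3 and 10.4, and 6.93 and 7.54. Lyz2, the lysozyme gene of myeloid cells, had 0.988 and 5.82, the only one of the 7 with a mean above 1 that was over 2-fold apart. Of 11 sebaceous genes, 7 were above 0.5 in both, led by Far2 (12.6 and 15.4) and Awat1 (4.53 and 7.03), which make waxes. The wound and sebaceous counts are not far from the share over all protein-coding genes (12615 of 21921) and say little by themselves. The antimicrobial count of 7 of 20 is below that share.

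Genes of structural proteins were crowded in 3 regions of the genome. The epidermal differentiation complex, taken from S100a1 to S100a10 on chromosome 3 (90511034 to 93564643), held 75 protein-coding genes, or 0.342% of all, and 3.99% of protein-coding FPKM in control 1 and 3.65% in control 2. Of these 75, 60 were above 0.5 in both libraries and 24 had a mean above 100. Over all 21921 protein-coding genes, 12615 were above 0.5 in both libraries, 394 had means from 100 to 1000 and 18 had means above 1000. The type II keratin region from Krt80 to Krt18 on chromosome 15 (101347444 to 102032027) held 29 genes, or 0.132% of all, and 4.76% and 4.86% of the FPKM. The type I keratin region from Krt222 to Krt42 on chromosome 11 (99232761 to 100269871) held 68 genes, or 0.310% of all, and 3.85% and 4.09%. Most of that share came from the few leading genes already named.

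The sequence before the start of these genes was read from RefSeq on GRCm38.p6, as the 100 bases before the annotated start in the direction of transcription. Flg and Lor of the granular layer, Krt10 of the spinous and Krt5 of the basal layer are shown because they are leading genes of their layers. Krt1 had no entry and Krt14 only an internal start in the table used. The sequences have the letters TATAAA in capitals, the core of the TATA box, and in Lor also TGAGTCA, the letters of an AP-1 site. Krt10 (chr11:99389365-99389464, minus strand) and Lor (chr3:92083143-92083242, minus strand) have TATAAA beginning 26 and 27 bases before the start. Flg (chr3:93273446-93273545, plus strand) has it 53 bases before the RefSeq start, which lies 23 bases inside the 5′ end of the gene in the deposited files. Krt5 (chr15:101712906-101713005, minus strand) does not have these letters in this window. Only these exact letters were sought, here and below, and variants of them were not.
Krt10: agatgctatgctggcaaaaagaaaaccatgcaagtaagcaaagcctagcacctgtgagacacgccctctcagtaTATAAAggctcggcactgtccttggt
Flg: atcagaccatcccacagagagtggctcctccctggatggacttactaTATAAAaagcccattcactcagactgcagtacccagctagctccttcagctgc
Lor: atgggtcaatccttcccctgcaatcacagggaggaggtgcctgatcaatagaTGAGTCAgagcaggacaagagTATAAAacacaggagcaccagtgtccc
Krt5: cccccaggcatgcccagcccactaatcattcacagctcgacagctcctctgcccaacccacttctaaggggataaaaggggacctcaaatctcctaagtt

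Over all 32851 promoter windows, TATAAA lay whole between 40 and 20 bases before the start, read in the direction of transcription, in 628, or 1.91%. The shares below are per gene, counting a gene if any of its windows held the letters. For TATAAA this share was 2.93% over all protein-coding genes with an entry. Among protein-coding genes above 0.5 FPKM in both libraries the share was 1.79%, and among those not above it 4.63%. It was 13 of 36 keratin genes (36.1%), 9 of 14 Sprr genes (64.3%), 6 of 19 granular genes (31.6%) and 2 of 20 Lce genes. No window of the 24 lipid barrier genes with an entry, nor of the 9 basal genes, held it there. TGACTCA or TGAGTCA, which are 1 motif read on both strands, was sought anywhere in the 250 bases before the start. It occurred in 4.46% of all windows. Per gene, it occurred in 4.76% of all protein-coding genes with an entry and in 8 of 14 Sprr genes (57.1%). It was there in 3 of 19 granular genes, 1 of 36 keratin genes, 0 of 20 Lce genes and 0 of 9 basal genes. Promoter windows were found for 67 of the 100 most abundant protein-coding genes, and these counts describe letters in a window, not the binding of a factor.

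Among RNAs that do not encode protein, the leading ones were small structural RNAs. Rn7sk, which holds back transcription elongation, had an FPKM of 6671 in control 1 and 7501 in control 2. Rn7s2 (2997 and 2976) and Rn7s1 (2952 and 2940) are copies of the RNA of the signal recognition particle, and Rpph1 (1308 and 1409) is the RNA of ribonuclease P. All 100-base stretches of Rn7s2 and of Rn7s1 occur in each other, so these 2 cannot be told apart. Of the stretches of Rn7sk 61.2%, and of those of Rpph1 60.9%, occur in another gene, so their values are also uncertain. H19, the imprinted long RNA that is abundant before birth, had 1202 and 1323 and stood just above Malat1 (963 and 897). The mean of H19 lay between those of BC100530 and Krtdap in the ranking of protein-coding genes. Its neighbour Igf2, the imprinted growth factor gene, had 166 and 145, and Gnas had 173 and 185. Protein-coding genes held 90.3% of all FPKM in both libraries. The 37 mitochondrial genes were all listed at 0 in both, and no statement is made about them.

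Genes of the cells that live among keratinocytes were present at low levels. Of the 14 melanocyte genes, 13 were above 0.5 in both libraries, with sums of 85.2 in control 1 and 95.3 in control 2. They were led by Dct (22.8 and 23.9) and Pmel (18.1 and 21), which act in melanin synthesis and in the melanosome, and the defining markers Tyr (2.23 and 2.54), Tyrp1 (2.68 and 3.74) and Mlana (1.76 and 3.16) were all above the cutoff. For Langerhans cells and macrophages, 20 of 21 genes were above 0.5, and the sums were 144 and 171. A large part came from Epcam (50.8 and 51.2), which epithelial cells also make. Ptprc, the leukocyte gene of CD45, had 3.57 and 3.31, Csf1r 6.77 and 9.26, Adgre1 1.51 and 2, and Cd74 13.1 and 16.4. Cd207, the gene of langerin that defines mature Langerhans cells, was at 0.0401 and 0.0417, below the cutoff in both. For T cells of the epidermis, 7 of 19 genes were above 0.5 in both, below the share over all protein-coding genes (12615 of 21921). Cd3e had 0.777 and 0.956, Cd3g 1.01 and 1.33 and Tcrg-C1 0.758 and 1.02, Trdc was below the cutoff at 0.161 and 0.463, and Gzmb was listed at 0 in both. By contrast all 11 Skint genes, which keratinocytes make and of which Skint1 is required for epidermal gamma delta T cells to mature, were above 0.5, with Skint9 at 44.4 and 52.7 and Skint1 at 37.3 and 39.8. For Merkel cells, 7 of 12 genes were above 0.5 in both, near the share over all protein-coding genes (12615 of 21921). The list summed to 34.0 and 25.6 and was led by Chga at a mean of 18.5. Atoh1 had 0.941 and 0.976 and Isl1 0.796 and 0.532, while Krt20 passed the cutoff in control 2 only (0.403 and 0.584) and Sox2 was under it in both (0.458 and 0.381).

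Genes that mark tissues outside the epidermis were mostly low, with named exceptions. Of 19 fibroblast genes, 10 were above 0.5 in both libraries, near the share over all protein-coding genes (12615 of 21921). The list summed to 190 in control 1 and 189 in control 2, but Postn (107 and 95.3) and Dcn (57 and 62.7) made up most of the sum. The defining collagens were low, with Col1a1 at 0.614 and 0.891, Col1a2 at 2.60 and 3.58 and Col3a1 at 0.746 and 1.45, and Lum was under the cutoff at 0.120 and 0.138. Of 12 endothelial genes only Egfl7 (2.23 and 2.01) was above 0.5 in both, while Pecam1 had 0.506 and 0.371, Kdr 0.0787 and 0.0921, and Cdh5 0.0280 and 0. Of 13 skeletal muscle genes, Mylpf (2.48 and 2.01) and Tnni2 (1.5 and 1.46) were above 0.5 in both, and Myh8 was listed at 0 while Acta1 had 0.215 and 0.184 and Ckm 0.271 and 0.356. No gene of the mast cell list of 9, the neutrophil list of 11 or the B cell list of 5 was above 0.5 in both. Red cell genes were present, with Hba-a1 at 45.7 and 42.7, Hbb-bs at 32.1 and 29.4 and Alas2 at 2.73 and 2.58, and the embryonic globins Hbb-y, Hbb-bh1 and Hba-x were listed at 0. Copies of the adult globins share 49.7% to 79.5% of their stretches, so only their sum is secure.

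**Figure D3:**
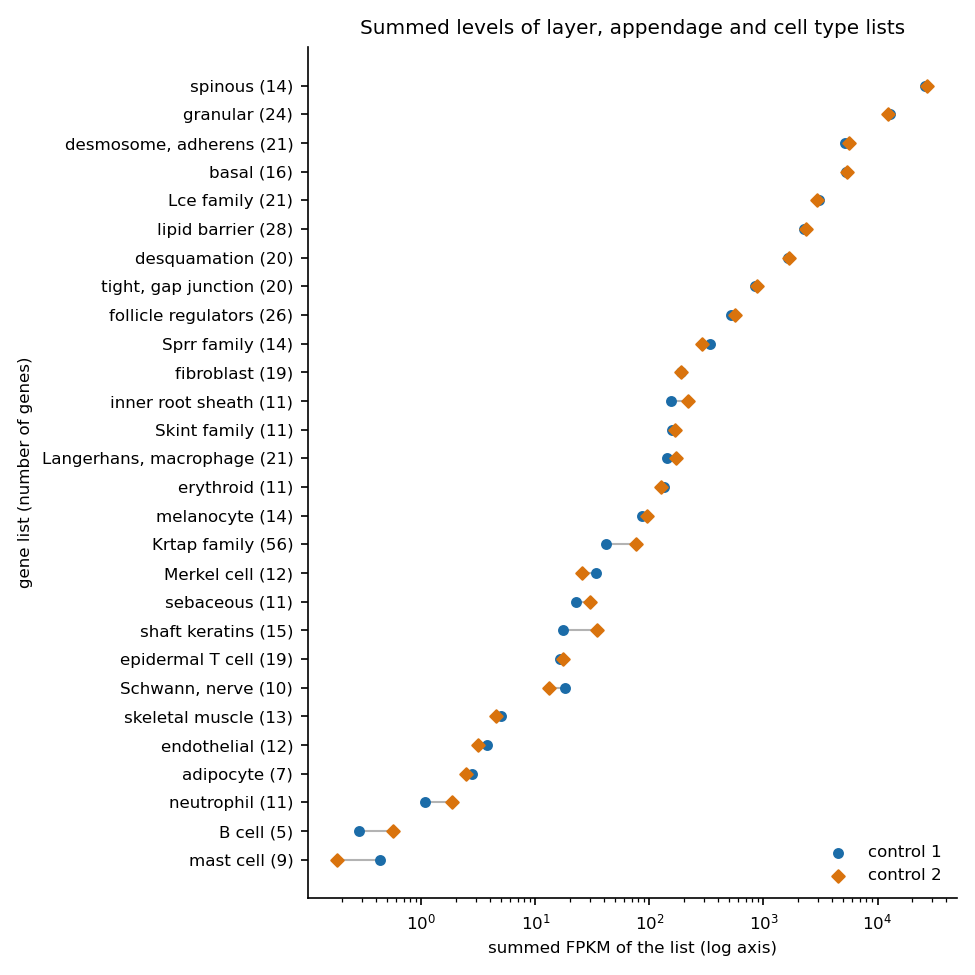
Summed FPKM (log axis) of 28 gene lists, with the number of genes in each, in control 1 (circles) and control 2 (diamonds). Layer and desmosome lists lie above 1000, resident cell lists between 16 and 171, and endothelial, muscle, mast cell, neutrophil and B cell lists below 5, while the shaft keratin and Krtap lists, and the mast cell and B cell lists at sums below 1, show wide gaps between the libraries.

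The 2 libraries were alike over most genes. Over the 13001 protein-coding genes with a mean above 0.5 FPKM, Pearson's r of log2(FPKM + 1) was 0.988 and Spearman's rho 0.989, as a description across genes. The SD of the log2 difference was 0.258, and 97.7% of genes were within 1.5-fold on this scale. The median log2 difference, control 2 over control 1, was 0.0166, so the genes as a whole leaned only slightly to control 2. The SD of the difference on log2(FPKM + 0.1) fell with the level, from 0.465 for genes with means of 1 to 10 to 0.260 from 10 to 100, 0.147 from 100 to 1000 and 0.117 above 1000. Of the 11895 genes with a mean above 1, 143 (1.2%) were over 2-fold apart on (FPKM + 0.1), of which 75 (0.631%) were higher in control 2 and 68 (0.572%) higher in control 1. Of the 143, 131 were among the 6046 genes with means of 1 to 10 and 12 among the 5437 from 10 to 100. The background for low genes is thus higher than that over all levels. None of the 394 genes with means from 100 to 1000, nor of the 18 above 1000, was over 2-fold apart.

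**Figure D4:**
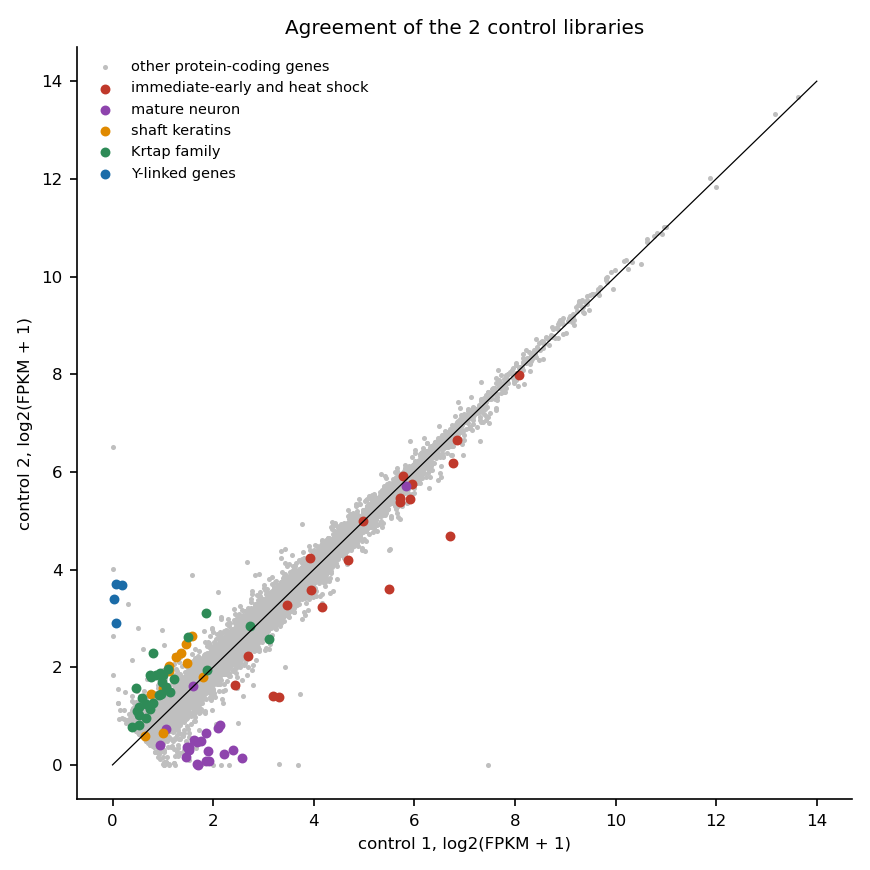
Each point is a protein-coding gene with a mean FPKM above 0.5, placed by log2(FPKM + 1) in control 1 (x axis) and control 2 (y axis), with the line of equality. Most genes follow the line, most immediate-early and mature neuron genes fall below it, and most shaft keratin and Krtap genes and the Y-linked genes lie above it.

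Of the 52 basal, spinous and granular genes with a mean above 1, only Tchhl1 was over 2-fold apart (0.784 in control 1 and 1.72 in control 2), which at 1.92% was near the background of 1.2%. None of the 28 lipid barrier, 19 desmosome and adherens, 35 transcription factor or 25 cell cycle genes with a mean above 1 was, and so low a background share leaves little to read from counts of 0. The genes that did differ included those of the groups below.

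Hair follicle structural genes were higher in control 2. All 11 inner root sheath genes were higher there, with sums of 154 in control 1 and 219 in control 2. Most of the sum came from Krt79 (120 and 158), a keratin of the upper follicle that the list includes, and the other 10 genes summed to 34.7 and 61.6. Krt71 had 9.25 and 19.7, Krt27 5.86 and 10.4, Krt25 4.37 and 8.15, and the trichohyalin gene Tchh 10.4 and 13.3. Of the 8 with a mean above 1, 3 were over 2-fold higher. Hair shaft keratins summed to 17.3 and 34.6, and 7 of the 10 with a mean above 1 were over 2-fold higher in control 2. The background in that direction was 0.631% over all levels. Krt86 had 1.98 and 5.20, Krt81 1.74 and 4.57 and Krt33b 1.56 and 3.87, but Krt32 had 2.47 and 2.48 and was alike. Keratin-associated protein (Krtap) genes, whose products surround the shaft keratins, summed to 41.6 and 76.2, and 12 of 21 with a mean above 1 were over 2-fold higher, Krtap7-1 (2.65 and 7.68) and Krtap8-1 (1.82 and 5.11) among them. Of all 56 Krtap genes 40 were higher in control 2 and 13 in control 1, Krtap10-10 (7.59 and 5) among the latter, and of the 15 shaft keratins 12 were higher in control 2 and 3 in control 1. These are low values, where the background is higher, and on (FPKM + 1) the counts over 2-fold in these lists were 1, 2 and 6. Of the 26 regulators of follicle growth, 18 were higher in control 2, with sums of 520 and 566, and none of the 24 with a mean above 1 was over 2-fold apart. This lean was not particular to the follicle. More genes were higher in control 2 than in control 1 on the lipid barrier (20 and 8) and desmosome and adherens lists (19 and 2). The same held for the melanocyte (12 and 2) and Langerhans cell and macrophage lists (17 and 4), while the Lce family went the other way (5 and 16). Over protein-coding genes the median log2 difference was also above 0, at 0.0206 for means of 1 to 10 and 0.0537 for 100 to 1000. The share of all genes higher in control 2 was not counted. Counts of genes higher in either library, here and below, thus have no background beside them.

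Immediate-early genes were higher in control 1. These genes are transcribed within minutes of a signal, and the list also holds heat shock genes. Of its 20 genes, 18 were higher in control 1, with sums of 1054 in control 1 and 802 in control 2. Of the 20, 6 were over 2-fold higher, against a background of 0.572% in that direction over all levels, which is higher for low genes. This list, like the others, was chosen with earlier results of these data known. Fos, a subunit of AP-1, had 103 and 24.6, Fosb 8.92 and 1.62, and Atf3 8.16 and 1.65. The phosphatase gene Dusp1 had 44.4 and 11.1, Egr1 17.0 and 8.37, and the nuclear receptor gene Nr4a1 4.39 and 2.12. Other members were closer, with Jund at 271 and 254, Junb at 107 and 71.9, and the heat shock genes Hspa1a at 60.7 and 53.1 and Hspa1b at 114 and 99.8. Egr2 (14.3 and 17.7) and Egr3 (53.4 and 59.0) were the exceptions, higher in control 2.

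Genes of mature neurons were also higher in control 1, at low levels. This list of 27 genes was written after their values had been seen. On it, 17 of the 19 with a mean above 1 were over 2-fold higher in control 1, a share that the choice of genes partly fixes. The background in that direction was 0.572% over all levels and is higher for low genes. Camk2a, a kinase of excitatory synapses, had 4.93 and 0.102, Snap25, of synaptic vesicle fusion, 4.23 and 0.244, and the glutamate transporter gene Slc17a7 2.19 and 0.0187. Eef1a2, the elongation factor of neurons and muscle, had 2.23 and 0. The exceptions among the 19 were Map2 (56.3 and 51.3) and Tubb3 (2.04 and 2.05), which were alike. Of 10 nerve sheath and nerve genes, 9 were also higher in control 1, with sums of 18.2 and 13.1 and Mbp at 11.3 and 8.50, and none of the 3 with a mean above 1 was over 2-fold apart. On the neuron list, the astrocyte gene Gfap was at 0.445 and 0.234, under the cutoff. Snap25 and the vesicle gene Syp (1.86 and 0.240) are also on the Merkel cell list, while Chga, another gene of that list, had 20.5 and 16.5.

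Other groups moved in the direction of control 2. On lists also written after values were seen, Krt19 had 0.417 in control 1 and 5.97 in control 2, Krt4 had 0.312 and 3.41, and Krt13 0.925 and 2.70, keratins of simple or mucosal epithelia. Their neighbours Krt7 (5.30 and 5.75), Krt18 (1.08 and 1.26) and Krt76 (0.788 and 0.900) were close. Of 16 sterol synthesis and uptake genes, 14 were higher in control 2, with sums of 456 and 573, but only Insig1, which restrains sterol synthesis, was over 2-fold apart (5.35 and 16.9), and Dhcr7 (63.1 and 50) went the other way. Of 83 ribosomal protein genes, 74 were higher in control 2, where they held 10.7% of protein-coding FPKM against 9.95% in control 1, and none was over 2-fold apart. Their median log2 difference was 0.139, against 0.0537 for all protein-coding genes with means from 100 to 1000. The share of all genes higher in control 2 was not counted, which limits the counts of 14 and 74.

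**Figure D5:**
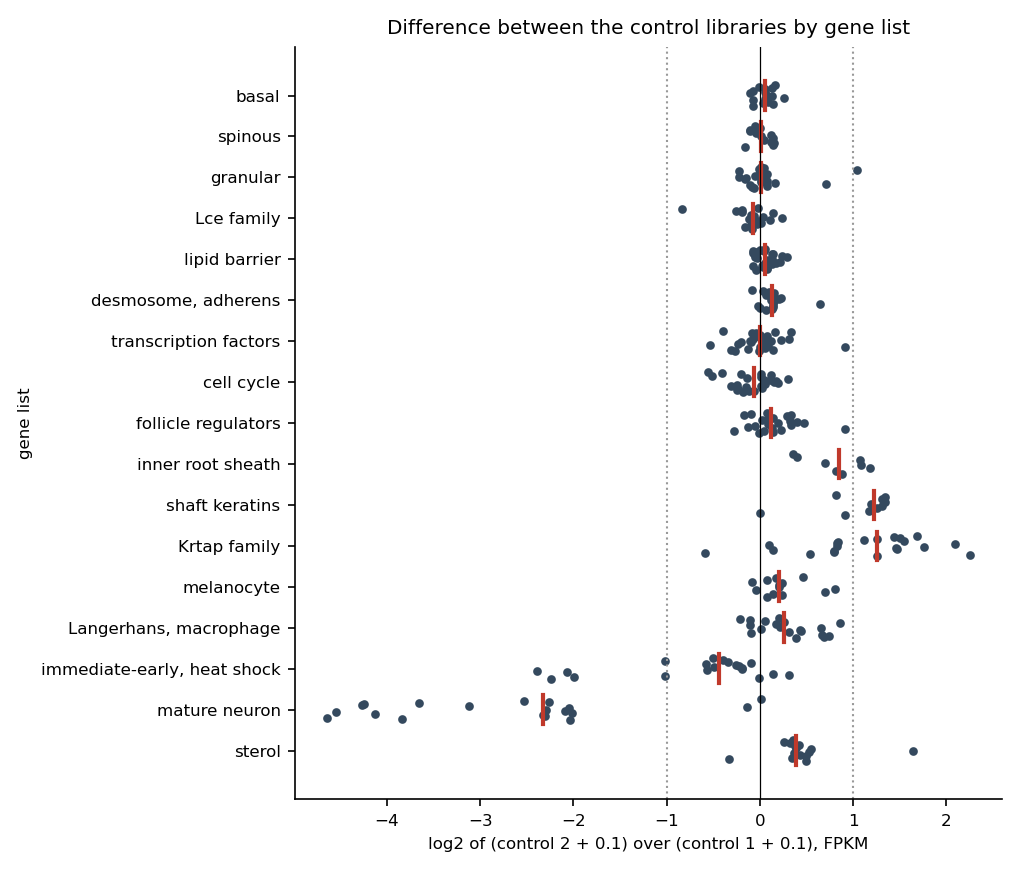
Each point is a gene with a mean FPKM above 1, placed by log2 of (control 2 + 0.1) over (control 1 + 0.1), grouped by list, with red bars at the medians and dotted lines at 2-fold. Layer, barrier and regulator lists have medians near 0, with the desmosome and follicle regulator lists shifted slightly towards control 2 (medians of 0.13 and 0.12). The melanocyte, Langerhans cell and macrophage, and sterol lists are shifted further that way (medians of 0.20, 0.26 and 0.39). Follicle structure lists lie to the right, and immediate-early and mature neuron lists lie to the left.

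The 2 pups differed in sex-linked RNA. Xist, made from the inactive X chromosome, had 83.7 in control 1 and 0.0171 in control 2, whereas the Y-linked genes had 0.0519 and 12.0 (Ddx3y), 0.132 and 11.9 (Eif2s3y), 0.0179 and 9.47 (Uty) and 0.0436 and 6.48 (Kdm5d). The follicle, immediate-early and neuronal gaps run between these same 2 libraries, so the part of sex in them cannot be told apart from any other difference between the 2 pups.

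Many of the genes farthest apart between the libraries share exons or sequence with other genes. The 10 farthest in each direction included Hist2h2aa2 (175 in control 1 and 0 in control 2), Gm49450 (0 and 90.1), Hist2h3b (0 and 15.2), H1fx (11.9 and 0), Gm49394 (8.87 and 0.0119), Hist2h2bb (0 and 5.25), Gm49361 (4.01 and 0), Gm49383 (3.46 and 0), Atp5o under the second of its identifiers (2.97 and 0), AC154187.2 (0 and 2.57), Gm42417 (2.44 and 0.0156) and Gm20671 (0.239 and 8.85). Of these 20 genes, 10 were listed at 0 in 1 library, and 12 had exons that overlap exons of another gene. All 100-base stretches of Hist2h2aa2 and of Gm49450 also occur in other genes. The remaining ones included Camk2a, Eef1a2, Slc17a7, Krt19 and the Y-linked genes described above. Over all 143 genes past 2-fold, 33.6% had such an overlap, against 37.7% of the 11895 compared, and the part of overlaps in these values was not tested.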

How the data were processed

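Total RNA of P0 epidermis was isolated with a column kit and DNase, passed a cutoff on RNA integrity and was sequenced at a company, and a workflow of the authors' institution turned the reads into tables. The aligner and the use of strand are not given in the sources used here; the build in the submitters' processing notes is GRCm38. For each library the authors deposited FPKM, TPM (scaled to one sum per library) and coverage signal (mean reads per base) per gene. The deposited FPKM of identifiers listed more than once (8 in control 1 and 9 in control 2) were summed, giving 54752 genes, of which 54723 matched GENCODE M21 by identifier and gave the gene type. Gene lists came from general knowledge, and families from symbols. The genes and lists were chosen with earlier results of these data known. Named genes were the 30 protein-coding and 5 non-coding genes with the highest mean, the markers, the leading members and low defining members of lists, the 10 farthest apart in each direction, Skiv2l and sex-linked genes. A few leading members of lists are not reported here. Others were chosen after their values were seen, as were the neuron, mucosal keratin, sterol and imprinted lists. Pseudocounts were 1 for agreement over all genes and 0.1 for folds. Stretches of 100 bases were compared across GENCODE M21 transcripts, and promoters came from RefSeq. No test was run, and the 2 pups limit every value. Python 3.11.15, pandas 2.3.3 and numpy 2.4.6 were used.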

Additional observations from a re-analysis of the deposited data

How the results depend on the processing

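No paired analysis was possible because the values come from 1 group of 2 libraries and no test. Of 242 values recomputed under other settings, 226 moved by less than the spread between the libraries, or by less than 1.5 times for counts, and 16 moved by more. Of the 242, 162 used TPM or left out 1 library, and most of these could not change by construction, since TPM shares equal FPKM shares and a library lies within 1 SD of the mean of 2. Counting all genes in place of protein-coding ones, the top 10 held 13.6% and the top 100 held 31.2%, because the structural RNAs enter. With a pseudocount of 0.1 the SD of the log2 difference was 0.423. The number over 2-fold apart changed most. From 75 higher in control 2 and 68 higher in control 1, it became 32 and 39 with a pseudocount of 1, which shrinks low values. With that pseudocount the members over 2-fold higher in control 2 numbered 1 in place of 3 for the inner root sheath, 2 in place of 7 for shaft keratins and 6 in place of 12 for Krtap genes. Those over 2-fold higher in control 1 numbered 4 in place of 6 for immediate-early genes and stayed at 17 for neuron genes. The neuron genes were picked after their values had been seen, which partly fixes their count, so it cannot be set against the others. The number over 2-fold apart in all became 137 and 143 for means above 0.5, 293 and 530 with no filter, and 174 and 217 by TPM, where more low genes enter at the same numeric filter. The rank of Krt77 was 646 or 649 with 1 library left out. The settings of these list counts were chosen after seeing the data. Low genes are limited by depth, and read counts were not used here, so no counting interval is given.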

Other observations

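Several RNAs annotated as nuclear pseudogenes on chromosome 1 were abundant. Gm29216 had an FPKM of 627 in control 1 and 707 in control 2, Gm28437 had 556 and 577, and Gm28661 had 337 and 407. Of their 100-base stretches, 96.7%, 100% and 100% occur in the mitochondrial genes mt-Co1, mt-Co3 and mt-Co2, which were listed at 0 in both libraries. Gm42417, Gm49394 and similar genes made of joined neighbours also share most of their stretches with those neighbours, 88.2% with other genes, mainly Ankrd23, for Gm42417 and 75.5% with Igf2 for Gm49394, and their values in either library should be read with that in view.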
